A study of Mus musculus with 4 samples.

Results

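Cdkn1a, Cdkn2a, Cdkn2b, Cdkn2c, Gdf15, Trp53 and Mdm2, which belong to the p53 checkpoint and to cellular senescence, were followed across the cell types of the mouse retina and choroid. They were chosen by name and make up 7 of the 24783 genes counted. All 7 had UMIs (unique molecular identifiers, tags that mark single captured RNA molecules) in each of the 4 libraries. The cells were those of wild-type mice over 18 months old (aged) or 6 to 8 weeks old (young), sampled 3 days after laser burns that induce choroidal neovascularization (CNV), or without CNV modelling (control). The laser settings were 532 nm, 200 mW and 0.150 s with a spot of 100 µm. Each of the groups aged CNV, aged control, young CNV and young control was 1 library, so no difference between them has a replicate check and no p-value is given. The labels do not state how many mice went into a library.

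Cells arrest at the checkpoint along a pair of routes. In the p53 route, the transcription factor p53 (Trp53) is held low by the ubiquitin ligase MDM2, which is itself a p53 target, and after damage p53 induces the cyclin-dependent kinase inhibitor p21 (Cdkn1a). In the RB route, inhibitors of the INK4 family, among them p16-INK4a (from Cdkn2a), p15-INK4b (Cdkn2b) and p18-INK4c (Cdkn2c), block the cyclin D kinases CDK4 and CDK6 and keep the retinoblastoma protein active. Cdkn2a also encodes p19ARF, which binds MDM2, and Gdf15 encodes a secreted stress cytokine that is a p53 target and is also induced by the integrated stress response.

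The promoters of the INK4 pair and of Cdkn1a are shown because the clearest laser differences below were in these genes. RefSeq start sites on GRCm38.p6, the same assembly as mm10, gave 11 windows for the 7 genes, each running from 250 bases before to 50 bases after the start. Cdkn1a, a protein-coding gene at chr17:29090979-29100722 on the plus strand, has 2 starts. The window of its upstream start, chr17:29090729-29091028, holds a p53 response element, in capitals.
Cdkn1a upstream start: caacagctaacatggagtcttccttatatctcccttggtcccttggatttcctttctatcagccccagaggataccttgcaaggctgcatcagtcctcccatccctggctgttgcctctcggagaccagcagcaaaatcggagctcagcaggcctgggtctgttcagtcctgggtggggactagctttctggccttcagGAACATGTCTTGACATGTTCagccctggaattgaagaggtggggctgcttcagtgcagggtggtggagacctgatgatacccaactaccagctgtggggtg
The element is a pair of adjacent p53 repeats, 20 bases in all, searched with at most 1 mismatch outside the central 4 bases of each repeat (C, then A or T at both middle bases, then G). It lies at chr17:29090928-29090947, 51 bases before the upstream start and 2841 bases before the downstream one, and 18 of 32841 promoter windows (0.0548%) hold such a pair. A search with no mismatch but with up to 13 bases between the repeats matched 24 windows (0.0731%). The upstream Cdkn1a window was also among them, through a different pair. That pair begins 73 bases before the upstream start and takes in only the first repeat of the marked element, whose other repeat holds the mismatch. Cdkn2a (chr4:89274473-89294619) and Cdkn2b (chr4:89306289-89311032) lie 11669 bases apart on the minus strand. Cdkn2a has an upstream start, which leads into the ARF transcript, and a downstream start, which leads into the p16-INK4a transcript. UMIs counted per gene cannot separate them, so every Cdkn2a value below is the sum of both. Capitals mark a match to TGACGTCA, the palindromic cyclic AMP response element, which reads alike on both strands and is held by 1.79% of all windows.
Cdkn2a upstream start, chr4:89294570-89294869: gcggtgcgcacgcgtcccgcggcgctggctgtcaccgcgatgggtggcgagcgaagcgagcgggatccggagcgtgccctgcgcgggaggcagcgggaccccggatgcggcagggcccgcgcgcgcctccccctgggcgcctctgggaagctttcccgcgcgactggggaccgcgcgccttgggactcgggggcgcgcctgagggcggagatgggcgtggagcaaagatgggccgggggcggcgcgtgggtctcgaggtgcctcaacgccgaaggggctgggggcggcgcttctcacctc
Cdkn2a downstream start, chr4:89282143-89282442: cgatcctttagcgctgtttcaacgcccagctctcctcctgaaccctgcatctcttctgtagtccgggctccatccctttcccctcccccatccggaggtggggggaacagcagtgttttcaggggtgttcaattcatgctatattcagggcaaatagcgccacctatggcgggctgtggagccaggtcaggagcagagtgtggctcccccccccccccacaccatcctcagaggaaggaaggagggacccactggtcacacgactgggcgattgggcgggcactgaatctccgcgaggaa
Cdkn2b, chr4:89310983-89311282: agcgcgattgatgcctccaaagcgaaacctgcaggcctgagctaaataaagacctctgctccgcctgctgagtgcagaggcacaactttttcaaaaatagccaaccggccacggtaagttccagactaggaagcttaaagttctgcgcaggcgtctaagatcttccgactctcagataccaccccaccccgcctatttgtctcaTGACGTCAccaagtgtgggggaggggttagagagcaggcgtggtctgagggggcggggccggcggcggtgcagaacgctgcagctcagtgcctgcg
The match in the Cdkn2b window begins 46 bases before the start. Neither Cdkn2a window holds these letters or the p53 pair.

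The matrix held 7731, 6676, 10867 and 11427 cells and 50848238 to 111908519 UMIs per library in aged CNV, aged control, young CNV and young control. Median UMIs per cell over all cells were 6875, 6427.5, 7223 and 2593. In young control 5823 of the cells were rod-like, with a median of 1328 UMIs. Depth within a class did not follow the same order. Endothelial-like medians were 5893.5, 5670, 7562 and 8421.5 UMIs, and fibroblast-like medians 8246, 8713, 11919.5 and 10015 UMIs. Rods had been depleted from the retina with an antibody to CD73, and the retinal and choroid-sclera suspensions were mixed before loading, so cell numbers do not give tissue composition. Any pair of libraries shared 14 to 29 cell barcodes. Cells were clustered without the 7 genes and named from marker genes as X-like classes. In each class the summed markers were 10.3 to 1786 times as high as in the other named cells of the same library, with the lowest ratios in Müller glia-like cells (10.3 to 23.3). Values are CPM (counts per 1000000 UMIs of the class), in classes of at least 50 cells in a library. Intervals are exact 95% intervals for counting error only. RNA released from broken cells gives UMIs in cells that do not make a transcript, and rod transcripts show its scale: all 8 rod genes of a free-RNA list were lower in young CNV than in young control in endothelial-like, fibroblast-like, macrophage/monocyte-like and Müller glia-like cells, with median log2 ratios from -2.97 to -1.71. A ratio is therefore named as within reach of free RNA where the higher of its libraries lay under 0.1 of the highest class in that library. The lower library of other ratios can also lie under 0.1.

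A difference was counted where the CPM ratio was at least 2 in either direction and the gene had at least 20 UMIs over both libraries of the class. Between aged CNV and aged control, 7 of 47 measured pairs of gene and class were higher (14.9%) and 0 were lower. Over all genes the same rule called 6.72% of pairs higher and 2.65% lower. Between young CNV and young control, 6 of 61 pairs were higher (9.84%) and 1 was lower (1.64%), against a background of 4.78% and 5.24%. Between aged control and young control, 2 of 44 pairs were higher and 10 were lower (22.7%), against 7.83% and 7.65% of all pairs. Between aged CNV and young CNV, 2 of 56 pairs were higher and 11 were lower (19.6%), against 11.6% and 5.69%. The pooled counts were thus above the background mainly among pairs higher after laser and among pairs lower in aged libraries. The calls were uneven over the genes. Gdf15 gave 5 of the 10 pairs lower between controls and 6 of the 11 between CNV libraries. Cdkn1a gave 4 of the 7 pairs higher in the aged laser comparison, and Mdm2 gave 0 calls. The age comparisons share a library with each laser comparison, and none of these counts has a test. Every called ratio had an interval that left out 1. Of the called values, 2 of 7 after laser in aged animals, 1 of 6 higher after laser in young animals, 5 of 10 lower in aged control and 4 of 11 lower in aged CNV were within reach of free RNA.

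**Figure D1:**
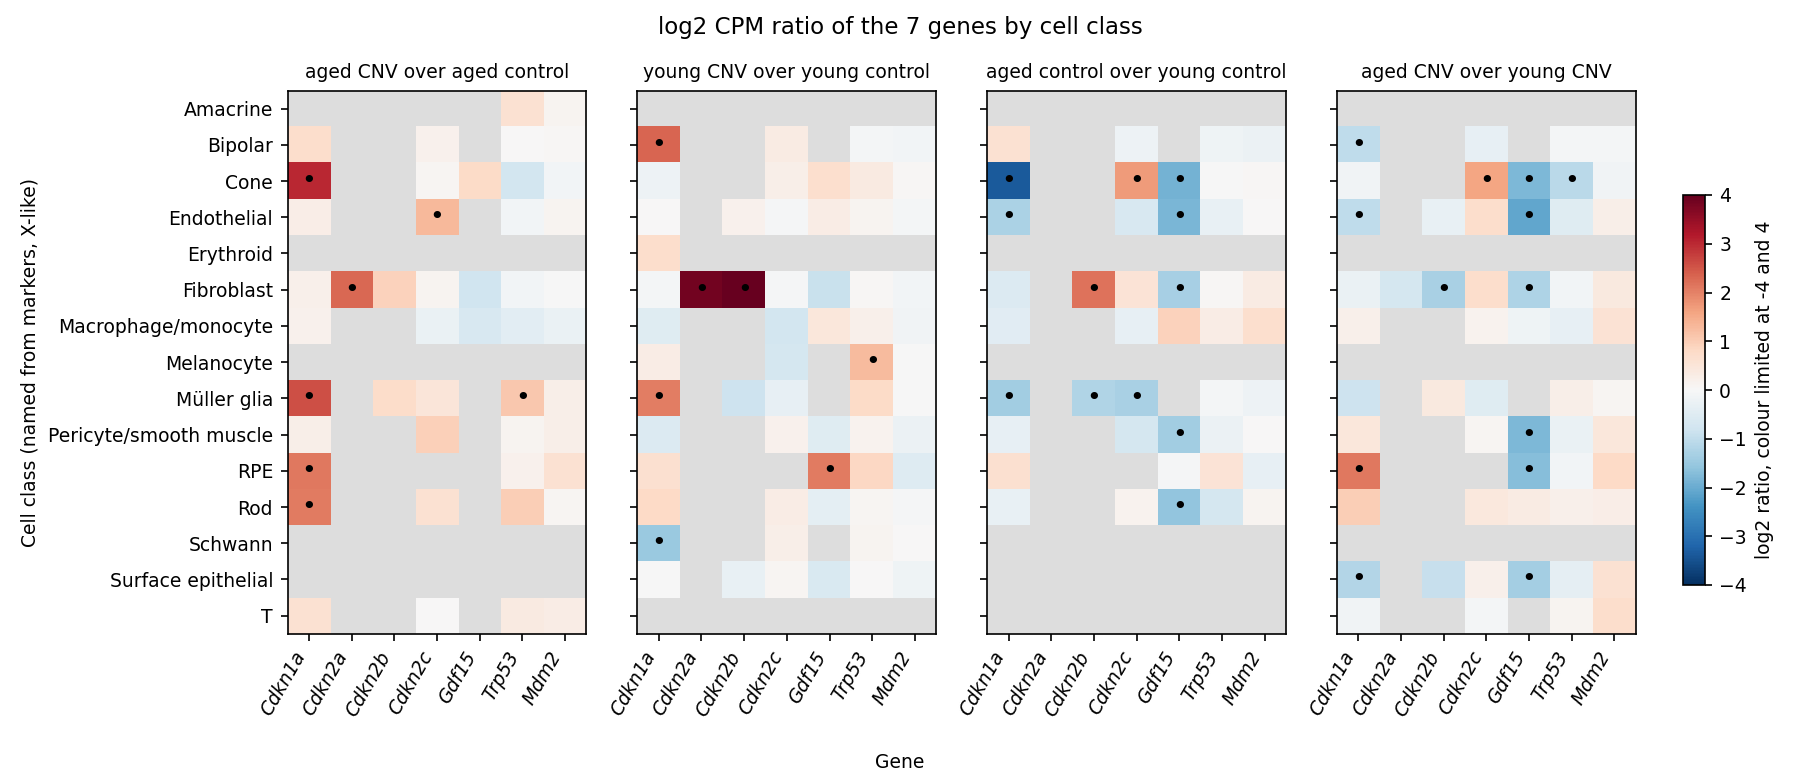
The log2 CPM ratio of each of the 7 genes is drawn by cell class for aged CNV over aged control, young CNV over young control, aged control over young control and aged CNV over young CNV. Red is higher and blue lower in the library named first, dots mark ratios of at least 2 in either direction and grey cells had under 20 UMIs or too few cells. Mdm2 has no dot, and the Gdf15 dots in the age comparisons are all blue.

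Cdkn1a, the p21 gene, was high in vascular, myeloid and Schwann-like cells and in surface epithelial-like cells of the young libraries, and low in retinal neurons. Endothelial-like cells held 298 CPM in aged CNV (1017 UMIs), 251 CPM in aged control (670 UMIs), 606 CPM in young CNV (5657 UMIs) and 604 CPM in young control (3750 UMIs). Macrophage/monocyte-like cells held 266, 235, 233 and 324 CPM in the same order of libraries, and pericyte/smooth muscle-like cells 226, 190.0, 163 and 238 CPM. Of the endothelial-, macrophage/monocyte- and pericyte/smooth muscle-like classes, endothelial-like cells alone differed 2-fold between the ages. Schwann-like cells, the glia of peripheral nerves, had enough cells only in the young libraries and held 323 CPM in young CNV and 897 CPM in young control, the highest class value. Surface epithelial-like cells held 914 UMIs of Cdkn1a in aged CNV, 2142 in young CNV and 2478 in young control. Their class totals were 9033419, 9373418 and 10724022 UMIs. In young control they held 23.7% of all Cdkn1a UMIs, after 35.8% in endothelial-like cells. Neutrophil-like cells reached 395 CPM in aged CNV, and skeletal muscle-like cells 369 CPM in young CNV. The skeletal muscle value rests on few cells, since 27 of 103 cells held all 481 UMIs and 1 cell held 134 of them. Photoreceptors and bipolar neurons were low: rod-like cells held 21.0, 4.998, 10.6 and 6.14 CPM, cone-like cells 7.84, 0.962, 8.63 and 9.88 CPM, and bipolar-like cells 8.13, 4.96, 16.3 and 3.28 CPM in aged CNV, aged control, young CNV and young control. These neuronal levels are under 0.1 of the highest class in their library and within reach of free RNA.

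**Figure D2:**
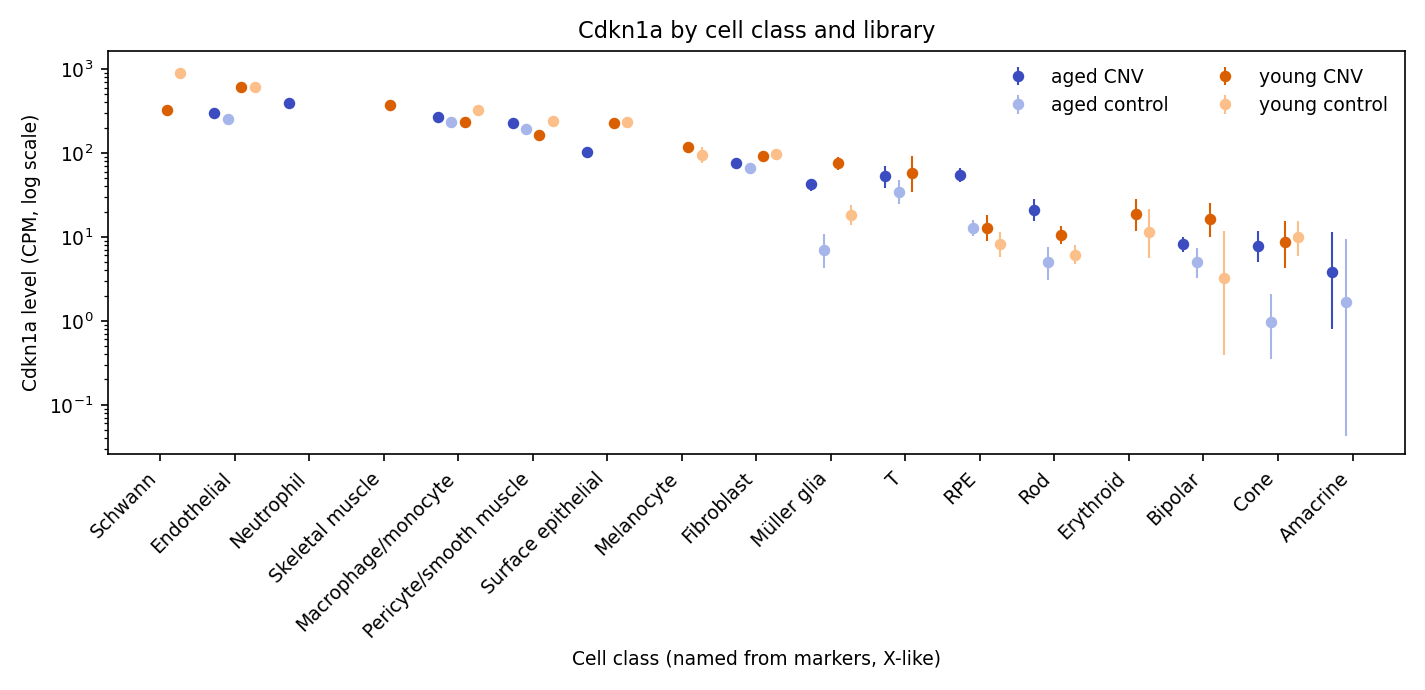
Cdkn1a level in CPM on a log axis is shown for every class of at least 50 cells, with 1 point per library (aged CNV, aged control, young CNV, young control) and bars for the exact 95% counting interval. Endothelial-like points split by age, while in Müller glia-like cells both CNV points (42.0 and 75.3 CPM) lie above both control points (7.04 and 18.4 CPM).

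Müller glia, the radial support cells of the retina, gave the laser difference in Cdkn1a that was of like size at both ages. Müller glia-like cells held 42.0 CPM in aged CNV (142 UMIs in 44 of 328 cells) and 7.04 CPM in aged control (20 UMIs in 13 of 289 cells), a 5.97-fold ratio (interval 3.72 to 10.1). They held 75.3 CPM in young CNV (121 UMIs in 49 of 185 cells) and 18.4 CPM in young control (50 UMIs in 31 of 391 cells), a 4.09-fold ratio (2.92 to 5.81). Both CNV libraries were above both controls. Both control levels lay under 0.1 of the highest class (0.0281 in aged control and 0.0205 in young control), and the CNV levels just above it (0.106 in aged and 0.124 in young). The main cluster of the class, which held 86.5% to 91.8% of its cells, gave 5.90-fold in aged and 4.01-fold in young animals. With each cell thinned to 1000 UMIs, 2.24% of cells in aged CNV, 0.730% in aged control, 7.19% in young CNV and 2.56% in young control had a Cdkn1a UMI, against 13.4%, 4.498%, 26.5% and 7.93% before thinning. In rod-like cells the thinned shares were 2.32%, 0.430%, 1.06% and 0.687%, so the Müller share lay above the rod share in aged control, young CNV and young control and not in aged CNV. Median depths before thinning were 8867.5, 10078, 8320 and 7374 UMIs in Müller glia-like cells and 2701, 3282, 1940 and 1328 UMIs in rod-like cells. The aged ratio was 3.67 without cells that held UMIs of at least 2 cell cycle genes and 2.76 as a mean over cells. It stayed above 2 in all alternatives run, although the thinned one (4.39) rests on 12 UMIs and its interval held 1. In aged CNV 1 cell held 26 of the 142 UMIs and the top 5 cells 52.8%. Without the cell of the highest count in each library the aged ratio was 6.96. The 10 macrophage markers summed to 160 CPM in aged CNV, 70.1 in aged control, 330 in young CNV and 75.4 in young control in Müller glia-like cells. In the same order the 8 fibroblast markers summed to 343, 76.8, 512 and 307 CPM, and the 9 endothelial markers to 1113, 1085, 890 and 711 CPM. The endothelial markers summed to 1326 CPM in cells with a Cdkn1a UMI and 1051 CPM in cells without in aged CNV. In young CNV these sums were 1049 and 781 CPM. The part of these markers in the result was not tested. In the Müller glia-like cells of aged CNV the fibroblast markers summed to 149 CPM in cells with a Cdkn1a UMI, under the class value, and the macrophage markers to 224 CPM, above it.

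Trp53 and other p53 targets were read in the same Müller glia-like cells. Trp53 held 42.0 CPM in aged CNV (142 UMIs) and 20.1 CPM in aged control (57 UMIs), a 2.09-fold ratio (1.53 to 2.90). It held 35.5 CPM in young CNV and 21.0 CPM in young control, on 57 UMIs each, which is under 2-fold. The aged ratio was under 2 with thinned cells (1.65), as a mean over cells (1.61) and without cell cycle cells (1.95). Of 24 other p53 targets, 8 of 19 measured were at least 2-fold higher in aged CNV and 0 lower, with a median log2 ratio of 0.69 against 0.01 over all genes. In this class 8.34% of all genes were called higher and 2.54% lower. The leading ones were Phlda3, an inhibitor of AKT signalling, with 38.8 CPM in aged CNV and 10.9 CPM in aged control, Gadd45a, a growth arrest gene, with 36.7 and 10.6 CPM, and the death receptor gene Fas with 39.1 and 11.6 CPM. Bax, a pore-forming death gene of the mitochondrion, held 73.7 CPM in aged CNV and 32.0 CPM in aged control. In young CNV against young control 2 of 18 measured targets were higher and 0 lower, with a median of 0.45 against -0.08 over all genes (3.13% of genes higher, 4.87% lower). Fas held 24.9 CPM in young CNV and 2.58 CPM in young control, and Gadd45a 31.7 and 11.04 CPM. Genes that regulate p53, such as Ep300 and Atm, showed no called difference in either age (0 of 9 and 0 of 8 measured, medians -0.26 and -0.25). Mdm2 held 58.6 CPM in aged CNV, 49.7 in aged control, 56.0 in young CNV and 56.7 in young control, with no call, unlike Cdkn1a. Of the integrated stress response list, 3 of 9 genes were higher in aged and 2 of 9 in young CNV, led by the stress-induced nuclear protein gene Nupr1 at log2 3.14 and 2.43. Cell cycle genes were also higher in aged CNV (8 of 9 measured, median log2 3.56) and only 1 of the list was measured in the young pair.

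The retinal pigment epithelium (RPE), the pigmented layer under the photoreceptors, showed a Cdkn1a difference in the aged pair. RPE-like cells held 55.1 CPM in aged CNV (110 UMIs), 12.8 CPM in aged control (82 UMIs), 12.8 CPM in young CNV (33 UMIs) and 8.28 CPM in young control (34 UMIs). The aged CNV library stood above the other 3, at 0.139 of its highest class, while the other 3 were under 0.1 (0.0511, 0.0212 and 0.00923), and the aged laser ratio was 4.31 (3.21 to 5.80). These UMIs were concentrated: 20 of 321 cells held all 110 and 1 cell held 38, and the ratio without the cell of the highest count in each library was 3.55. The 9 endothelial markers summed to 166 CPM in the RPE-like cells of aged CNV, against 32.2 in aged control, 45.9 in young CNV and 29.5 in young control. In aged CNV they summed to 592 CPM in the 20 cells with a Cdkn1a UMI and 79.1 CPM in the cells without, and the part of endothelial RNA in the result was not tested. RPE-like cells named from their own markers gave 2.85. Among p53 targets, 3 of 19 were higher in aged CNV and 0 lower (median 0.30), against 6.02% and 3.05% of all genes in that class, led by Plk2, a stress-inducible kinase gene, at 19.5 CPM in aged CNV and 5.93 CPM in aged control. In young CNV against young control 0 of 19 were called.

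The Cdkn1a laser ratio was also past 2-fold in rod- and cone-like cells of the aged pair and in bipolar- and Schwann-like cells of the young pair. Schwann-like cells could be compared in the young pair only. The aged laser ratios of 4.20 in rod-like cells (2.46 to 7.41) and 8.16 in cone-like cells (3.27 to 24.3) and the young ratio of 4.98 in bipolar-like cells (1.21 to 43.9) were all within reach of free RNA. With predicted doublets kept, the cone ratio was 2.64, and as a mean over cells it was 4.01. In the bipolar-like cells of young CNV 8 cells held the 20 UMIs, and with predicted doublets kept the ratio was 1.53. The 9 endothelial markers summed to 120 CPM in bipolar-like cells of young CNV and 22.9 in young control, and in young CNV to 1100 CPM in the 8 cells with a Cdkn1a UMI and 39.7 CPM in the others. The 10 macrophage markers summed to 356 CPM in young CNV and 77.0 in young control, and the part of these markers was not tested. In aged CNV against aged control the macrophage markers summed to 407 and 207 CPM in rod-like cells and to 216 and 107 CPM in cone-like cells. Schwann-like cells ran the other way, at 0.360 in young CNV over young control (0.313 to 0.414). Their ratio was 0.523 with thinned cells, 0.613 with cells named from their own markers and 0.558 as a mean over cells, which are above the limit of 0.5. Without thinning, 64.4% of Schwann-like cells in young CNV and 76.9% in young control had a Cdkn1a UMI, and with thinning 34.6% and 54.7%.

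In the endothelial-like class as a whole Cdkn1a differed more between aged and young libraries than between CNV and control. The aged over young ratio was 0.415 between controls (0.382 to 0.451) and 0.492 between CNV libraries (0.460 to 0.526), where 8.85% and 6.21% of all genes in the class were called lower. Of thinned cells, 24.2% had a Cdkn1a UMI in aged CNV, 15.8% in aged control, 45.7% in young CNV and 41.6% in young control, against 55.4%, 46.5%, 83.4% and 78.9% before thinning. Both young libraries were above both aged ones at equal depth. The class is made of unequal parts. Cluster c08, led by the fenestral diaphragm gene Plvap and by Igfbp3, held 229 CPM of Cdkn1a in aged CNV, 238 in aged control, 421 in young CNV and 554 in young control. Cluster c18, led by Fabp4 and Gpihbp1, genes of capillaries that take up fatty acids, held 796, 609.7, 1093 and 826 CPM of Cdkn1a. Its cells numbered 86, 20, 310 and 121, so the cluster with more Cdkn1a was smaller in the aged libraries. From young control to young CNV, Cdkn1a was thus lower in c08 and higher in c18, opposite directions that the class sum mixes. In the aged pair the c08 levels were close, and c18 was higher in CNV, with 20 cells in aged control. Within c08 the aged over young Cdkn1a ratio was 0.430 between controls (0.393 to 0.470) and 0.542 between CNV libraries (0.498 to 0.590). Within c18 it was 0.738 (0.550 to 0.972) and 0.729 (0.648 to 0.817), on 54 UMIs in aged control.

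**Figure D3:**
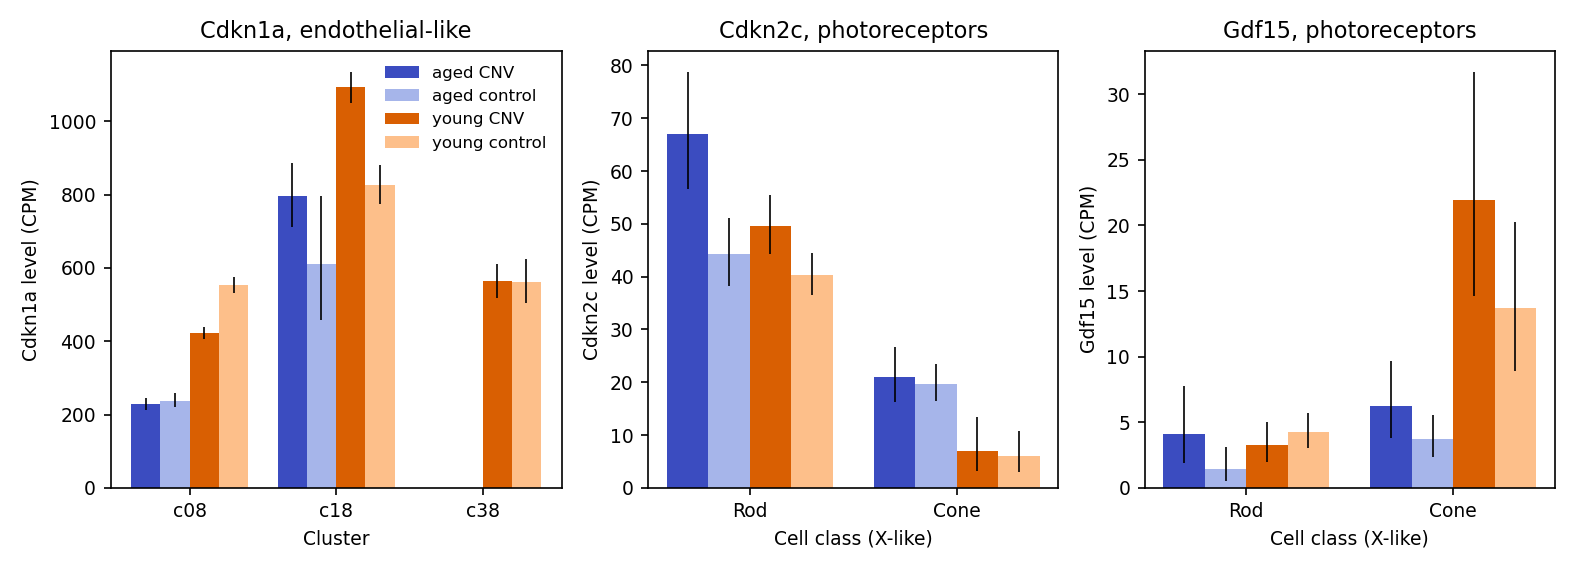
Levels in CPM are shown as bars from 0 for aged CNV, aged control, young CNV and young control, with exact 95% counting intervals: Cdkn1a in 3 endothelial-like clusters, and Cdkn2c and Gdf15 in rod-like and cone-like cells. Cluster c38 had no cells in the aged libraries. Cdkn1a in c08 is lower in both aged bars (229 and 238 CPM) than in both young bars, and Gdf15 in cone-like cells is highest in young CNV (22.0 CPM).

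Other CDK inhibitors and stress genes were read beside this difference. Cdkn1c, the p57 gene, held 37.4 CPM in the endothelial-like cells of aged control and 178 in young control, and 54.5 CPM in aged CNV and 162 in young CNV. Cdkn1b, the p27 gene, held 83.8 CPM in aged control and 59.9 in young control, so the CIP/KIP inhibitors did not share a direction. Rb1, the retinoblastoma gene, held 477 CPM in aged control and 140.2 in young control, and was the single gene of the RB list (1 of 12 measured) called higher there, against 7.46% of all genes. Among p53 targets in endothelial-like cells 0 of 23 were higher and 2 were lower in aged control, with a median of 0.26 against 0.06 over all genes, and Btg2, an anti-proliferative gene, held 429 CPM in aged control and 975 in young control. The 12 immediate early and heat shock genes, which are known to respond to tissue dissociation, were mostly lower in aged control than in young control in all 9 classes compared, with 7 to 11 genes called lower per class and medians from -2.87 to -1.14. In endothelial-like cells 9 of 12 were lower between controls (median -1.49) and 5 of 12 between CNV libraries (median -0.96), and Fos held 1099 CPM in aged control and 4548 in young control. Their part in the Cdkn1a difference was not tested. Surface epithelial-like cells gave a Cdkn1a ratio of 0.443 in aged CNV over young CNV (0.409 to 0.479), 0.651 with thinned cells and 0.564 with cells named from their own markers.

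In fibroblast-like cells Cdkn2a of the INK4 pair was called higher after laser at both ages and Cdkn2b in young animals. Cdkn2a held 2.22 CPM in aged CNV (32 UMIs), 0.448 in aged control (5 UMIs), 3.60 in young CNV (170 UMIs) and 0.248 in young control (5 UMIs). Cdkn2b held 5.07 CPM in aged CNV (73 UMIs), 2.69 in aged control (30 UMIs), 12.5 in young CNV (590 UMIs) and 0.596 in young control (12 UMIs). Both genes were highest in young CNV, and both CNV libraries lay above both controls. For Cdkn2a the laser ratio was 4.96 in aged (1.92 to 16.3) and 14.5 in young animals (6.09 to 45.2). For Cdkn2b the young laser ratio was 21.0 (11.9 to 40.8), with young control at 0.0169 of its highest class, and the aged one was 1.89, under the limit. In the fibroblast-like class 6.71% of all genes were called higher in the aged and 4.8% in the young laser comparison. Cdkn2b was also 4.52-fold higher in aged control than in young control (2.24 to 9.68) and 0.406-fold in aged CNV over young CNV (0.314 to 0.519). The ratio between CNV libraries was 0.629 without cell cycle cells, 0.521 as a mean over cells and 0.503 with cells named from their own markers, which are not past 2-fold. Fibroblast-like cells held 48.5%, 23.8%, 79.8% and 26.3% of all Cdkn2a UMIs in aged CNV, aged control, young CNV and young control. Skeletal muscle-like cells of young CNV had a higher level on few UMIs, 10.7 CPM from 14 UMIs in 2 cells. So did T-like cells, with 9.82 CPM in aged CNV (9 UMIs), 4.52 in aged control (5 UMIs) and 6.40 in young CNV (2 UMIs). No other named class had more than 5 UMIs of Cdkn2a in a library. Cdkn2b had a separate place of expression in surface epithelial-like cells, with 15.2 CPM in aged CNV (137 UMIs), 28.6 in young CNV (268 UMIs) and 35.2 in young control (378 UMIs), and no laser call there. In Müller glia-like cells Cdkn2b held 6.51, 3.87, 4.98 and 8.83 CPM on 8 to 24 UMIs, and its aged over young control ratio of 0.439 was 1.11 as a mean over cells.

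Few fibroblast-like cells carried the INK4 UMIs. Cdkn2a was found in 15 of 1475 cells in aged CNV (1.02%), 3 of 1173 in aged control (0.256%), 69 of 3242 in young CNV (2.13%) and 3 of 1839 in young control (0.163%). Cdkn2b was found in 47 (3.19%), 23 (1.96%), 160 (4.94%) and 12 cells (0.653%). With cells thinned to 1000 UMIs the Cdkn2b shares were 0.206%, 0.258%, 0.528% and 0.110%, and the thinned young laser ratio of Cdkn2b was 4.82 on 19 UMIs, with an interval that left out 1, against 21.0 before thinning. The thinned Cdkn2a comparison rests on 4 UMIs in the young pair and gave 0.756, so Cdkn2a could not be compared at equal depth. The cells that carried both genes overlapped: in young CNV 51 of 69 cells with Cdkn2a also had Cdkn2b (73.9%), against 109 of 3173 cells without Cdkn2a (3.44%). In aged CNV these were 8 of 15 (53.3%) against 39 of 1460 (2.67%). Cells with Cdkn2a were deeper, with a median of 42597 UMIs against 11657 without in young CNV, and 28167 against 8177.5 in aged CNV. They also held cell cycle transcripts: 45 of 69 cells with Cdkn2a in young CNV had UMIs of at least 2 cell cycle genes (65.2%), against 380 of 3173 without (11.98%), and in aged CNV 8 of 15 against 55 of 1460 (3.77%). For Cdkn2b in young CNV the shares were 77 of 160 (48.1%) and 348 of 3082 (11.3%), with median depths of 34998.5 and 11479 UMIs. Because deep cells detect more of every gene, these shares are a description, and the part of depth was not tested. Without cells that held cell cycle UMIs, the Cdkn2a ratio was 3.68 in aged and 4.48 in young animals, and the young Cdkn2b ratio was 10.8. As a mean over cells, the Cdkn2a ratio was 1.93 in aged and 3.91 in young animals, and the young Cdkn2b ratio was 7.77. The highest alternatives for Cdkn2a were 9.29 in the aged pair, with cells named from their own markers, and 22.3 in the young pair, without the cell of the highest count in each library.

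Within the class the pair was placed unevenly. Cluster c01, led by Edn3, Igfbp5, Mgp and Angpt1, held 2.76 CPM of Cdkn2a in aged CNV, 0.222 in aged control, 9.66 in young CNV and 0.629 in young control, and 7.04, 1.55, 24.1 and 1.01 CPM of Cdkn2b. Its laser ratio was 15.4 for Cdkn2a in young animals (6.41 to 48.2), and for Cdkn2b it was 24.0 in young (12.01 to 56.02) and 4.53 in aged animals (1.93 to 12.3). Cluster c02, led by Clec3b, Tnfaip6, Pi16 and Postn, held 3.31, 1.58, 1.07 and 0 CPM of Cdkn2a and 1.102, 1.58, 8.93 and 0.417 CPM of Cdkn2b. The young laser ratio of Cdkn2b in c02 was 21.4 (5.84 to 178), and aged CNV was at 0.123 of young CNV (0.0396 to 0.293), whereas Cdkn2a in c02 was 3.09-fold higher in aged CNV (1.4996 to 6.18). The fold between the CNV libraries thus differed in sign between the neighbouring genes in c02 and was below 1 for both in c01. Over the whole class in aged CNV, 1 cell held 10 of the 32 Cdkn2a UMIs, and the top 5 cells held 65.6%. In young CNV the top cell held 7.65% and the top 5 cells 24.1%. The spread over cells within c02 was not examined. Cluster c10, led by Myoc, Chil1, Ecrg4 and Itgbl1, held 8.45, 4.73, 2.89 and 0.244 CPM of Cdkn2b, so that here the aged libraries were the higher ones. The 36 cells of cluster c41 in young CNV, which lead with collagen genes and the mitotic genes Top2a and Cenpf, held 13.9 CPM of Cdkn2a and 44.1 CPM of Cdkn2b. The largest fibroblast-like cluster was c02 in both CNV libraries (35.1% of the class in aged and 44.3% in young) and c01 in both controls (48.3% and 51.0%), so class sums mix clusters of different level, and the values within clusters stand beside them for that reason.

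**Figure D4:**
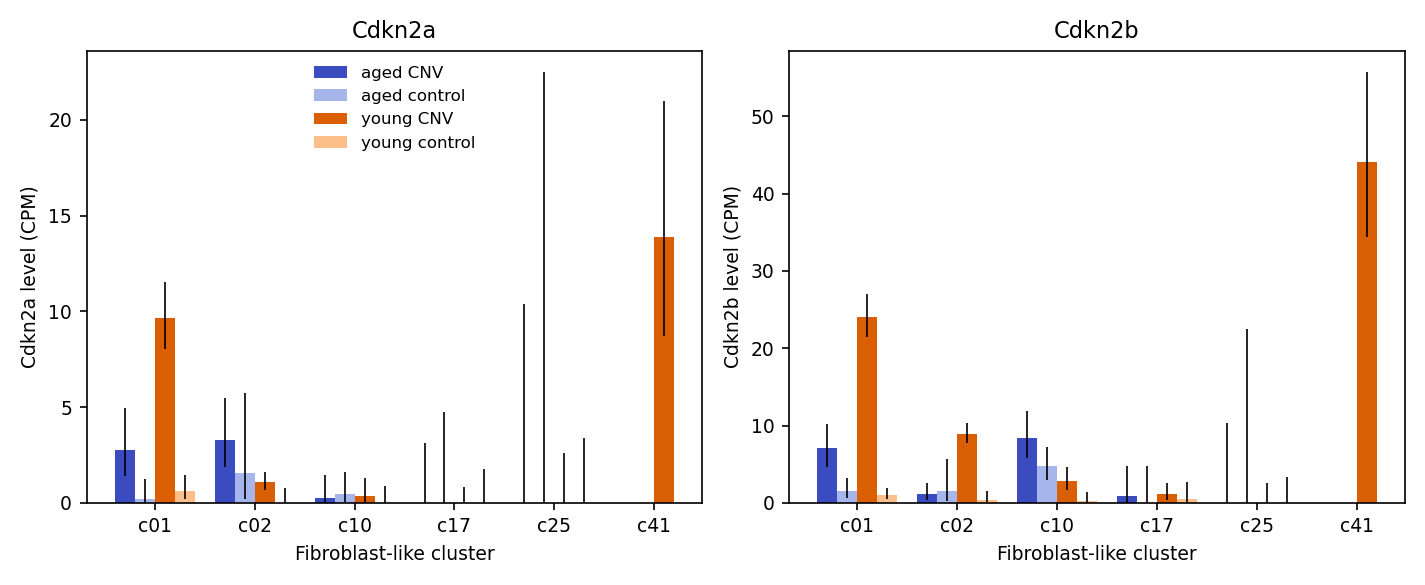
Cdkn2a (left) and Cdkn2b (right) levels in CPM are drawn by fibroblast-like cluster as bars from 0, for aged CNV, aged control, young CNV and young control, with exact 95% counting intervals; bars without height are libraries with 0 UMIs and clusters of fewer than 20 cells are left out. In c01 the young CNV bars (9.66 and 24.1 CPM) stand above the other 3 libraries, and c17 and c25 hold almost none of either gene.

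Genes around the INK4 pair in fibroblast-like cells were examined as lists. Over all genes in the class 6.71% were called higher and 2.63% lower in the aged laser comparison, 4.8% and 6.27% in the young one, and 6.85% lower between controls. Of 15 RB axis genes 2 were higher in aged CNV over aged control and 0 lower (median 0.13), and in the young pair 0 were called (median 0.20). Lmnb1, the lamin B1 gene whose loss is used as a sign of senescence, held 26.0 CPM in aged CNV and 13.005 in aged control, and 24.8 CPM in young CNV and 13.3 in young control, both under 2-fold and not called. Of 16 cell cycle genes 15 were higher in aged CNV (median 3.97) and 13 in young CNV (median 1.84), with Top2a at 31.7 CPM in aged CNV and 0.179 in aged control. Between controls 12 of 13 measured cell cycle genes were lower in aged (median -3.27). Of 22 measured genes of the senescence-associated secretory list 10 were higher in aged CNV and 0 lower (median 0.45), and 6 were higher and 1 lower in young CNV (median 0.35), against -0.06 and -0.09 over all genes. Summed over the list, the level was 15254 CPM in aged CNV and 18206 in aged control, and 9855 CPM in young CNV and 11775 in young control, so the sums were lower after laser while the medians were above 0. The chemokine gene Ccl8 held 39.5 CPM in aged CNV, 6.82 in aged control, 35.2 in young CNV and 5.91 in young control, and Il6 held 112 CPM in aged CNV and 36.1 in aged control. The collagenase gene Mmp13 held 8.64 CPM in young CNV and 0.397 in young control. Of the other p53 targets 2 of 24 were higher in aged CNV and 1 of 24 in young CNV, with 0 lower and medians of -0.02 and -0.01. Cdkn1a in fibroblast-like cells held 75.9, 65.7, 92.1 and 96.6 CPM in aged CNV, aged control, young CNV and young control, with no call.

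Cdkn2c, the p18 gene, was highest among the named classes in rod-like cells in the aged libraries and in Schwann-like cells in the young ones. Rod-like cells held 67.1 CPM in aged CNV (147 UMIs), 44.3 in aged control (186 UMIs), 49.6 in young CNV (305 UMIs) and 40.4 in young control (401 UMIs). Cone-like cells held 21.0 (67 UMIs), 19.7 (123 UMIs), 7.06 (9 UMIs) and 6.04 CPM (11 UMIs). In cones Cdkn2c was past 2-fold in both age comparisons, at 3.26 between controls (1.76 to 6.71) and 2.98 between CNV libraries (1.48 to 6.80). The summed rod markers in these cone-like cells were 2819 CPM in aged CNV, 3379 in aged control, 5302 in young CNV and 6072 in young control, and their part in the Cdkn2c levels was not tested. Endothelial-like cells held 23.2 CPM in aged CNV (79 UMIs), 9.35 in aged control (25 UMIs), 14.2 in young CNV (133 UMIs) and 14.6 in young control (91 UMIs). The aged laser ratio was 2.48 (1.56 to 4.06), and it was 1.89 without cells that held cell cycle UMIs and 1.58 with thinned cells. In the same cells 12 of 13 cell cycle genes were higher in aged CNV (median 4.74), as were 3 of 13 RB axis genes, with E2f1 at 6.74 CPM in aged CNV and 0.374 in aged control, against 6.62% of all genes called higher and 2.68% lower in the class. In Müller glia-like cells Cdkn2c held 13.9, 9.86, 19.3 and 24.3 CPM, with an aged over young control ratio of 0.406 (0.251 to 0.641), which was 0.701 with thinned cells. The cycling cluster c41 held 159 CPM of Cdkn2c in young CNV (253 UMIs). In Schwann-like cells Cdkn2c held 58.8 CPM in young CNV and 50.2 in young control, melanocyte-like cells held 27.7 and 45.2 CPM in the same libraries, and fibroblast-like cells held 22.4, 20.6, 13.7 and 14.2 CPM.

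Gdf15 was a myeloid transcript in this tissue. Macrophage/monocyte-like cells held 59.2 CPM in aged CNV (295 UMIs), 91.7 in aged control (173 UMIs), 67.2 in young CNV (914 UMIs) and 48.8 in young control (76 UMIs). They held 63.0%, 60.9%, 66.3% and 18.95% of all Gdf15 UMIs, so in young control most of the gene lay outside them. Neutrophil-like cells of aged CNV held 97.7 CPM (63 UMIs). The macrophage levels differed by less than 2-fold in each comparison, and 1 cell held 41 of the 173 UMIs in aged control. The largest cluster of the class was L00 (Cd74, H2-Aa, C1qb) in aged CNV (24.9%) and young CNV (38.03%), L09 (Chil3, Ly6c2) in aged control (24.6%) and L04 (Cd86, Ccl4, Cxcl2) in young control (39.0%). In aged CNV L00 (133 cells) was close in size to L07 (121 cells) and L01 (120 cells). Cluster L01, led by Spp1, Gpnmb, Fabp5, Arg1 and Trem2, held 135 CPM of Gdf15 in aged CNV (214 UMIs), 322.5 in aged control (161 UMIs) and 145 in young CNV (614 UMIs), and 1 cell in young control. Cluster L04 held 68.8 CPM in aged CNV, 26.9 in aged control, 101 in young CNV and 46.0 in young control. Its laser ratio was 2.56 in aged (0.842 to 10.4) and 2.19 in young animals (1.38 to 3.60), whereas the aged ratio in L01 was 0.418 (0.339 to 0.517). The Ly6c2 monocyte cluster L09 held 2.44 CPM in aged CNV and 1.84 in aged control, and L08 and L15 held 0 UMIs. Across macrophage-like cells Gdf15 therefore ran from none to over 300 CPM by cluster, a wider span than between libraries.

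**Figure D5:**
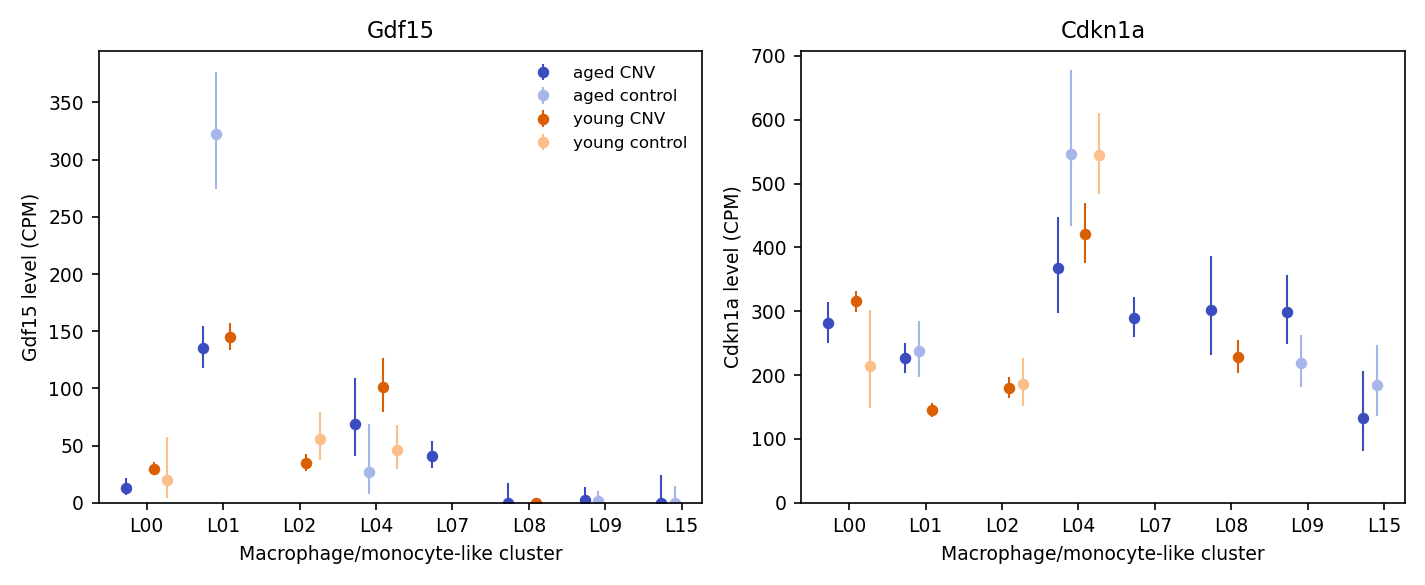
Gdf15 (left) and Cdkn1a (right) levels in CPM are shown by macrophage/monocyte-like cluster, with 1 point per library and bars for the exact 95% counting interval; libraries with fewer than 20 cells of a cluster are left out. Gdf15 is highest in L01 (322.5 CPM in aged control) and at 0 in L08 and L15, while Cdkn1a is highest in L04 (367 to 546 CPM).

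In most classes other than macrophage/monocyte-like cells Gdf15 was lower in the aged libraries. Of 7 classes measured between controls, macrophage/monocyte-like cells included, 5 were at least 2-fold lower in aged control and 0 higher, and between CNV libraries 6 of 8 were lower and 0 higher. Between CNV libraries the surface epithelial-like ratio changed sign in some alternatives. The fibroblast-like ratio was 0.756 as a mean over cells, and the endothelial-like ratio 0.796 with thinned cells, on 7 UMIs. The cone-like and pericyte/smooth muscle-like ratios stayed past 2-fold in every alternative that gave a value. Over all genes and classes, 7.65% of pairs were called lower and 7.83% higher between controls, and 5.69% and 11.6% between CNV libraries. In the measured classes the all-gene share called lower ran from 3.46% (RPE-like) to 9.9% (rod-like) between controls. Between CNV libraries it ran from 4.24% (surface epithelial-like) to 9.21% (rod-like). Rod-like cells held 4.11 CPM in aged CNV (9 UMIs) and 3.25 in young CNV (20 UMIs), the other direction, with no call. Cone-like cells held 6.28 CPM in aged CNV (20 UMIs), 3.69 in aged control (23 UMIs), 22.0 in young CNV (28 UMIs) and 13.7 in young control (25 UMIs), with aged over young ratios of 0.286 for CNV (0.153 to 0.526) and 0.269 for controls (0.146 to 0.493). Pericyte/smooth muscle-like cells held 3.73, 6.93, 13.1 and 18.3 CPM, with ratios of 0.285 and 0.378. Both classes were lower in both aged libraries, on 4 to 54 UMIs per library. The other called classes were endothelial-like, fibroblast-like and surface epithelial-like cells and rod-like cells, at 0.973 to 4.93 CPM and within reach of free RNA, and RPE-like cells between CNV libraries (0.307). Young CNV held 8.16 CPM of Gdf15 in RPE-like cells (21 UMIs) and young control 1.95 (8 UMIs), a 4.19-fold ratio (1.78 to 10.9) that was 1.38 with cells named from their own markers. The macrophage markers summed to 695 CPM in these RPE-like cells of young CNV and 184 in young control, and their part was not tested. Of the receptor pair of GDF15, Gfral was not measured, and Ret held 5.63 CPM in the fibroblast-like cells of aged CNV and 1.97 in aged control, and 12.2 in young CNV and 6.01 in young control. Of the integrated stress response list 0 of 8 genes were called in macrophage/monocyte-like cells of the aged pair, and in the young pair 2 of 9 were higher, the cystine transporter gene Slc7a11 at 41.2 CPM in young CNV and 3.85 in young control and the serine synthesis gene Psat1 at 11.8 and 5.14 CPM. Of all genes in that class 8.47% were called higher and 5.15% lower in the aged pair, and 6.21% and 8.55% in the young pair.

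Trp53 and Mdm2, the core of the p53 loop, were read in nearly every class. Their levels differed more between classes than between libraries of the same class. Trp53 was highest in T-like cells, with 96.0 CPM in aged CNV, 75.1 in aged control and 89.6 in young CNV, and low in rod-like, bipolar-like and RPE-like cells (8.81 to 19.8 CPM). Endothelial-like cells held 51.9, 55.7, 73.4 and 68.2 CPM and fibroblast-like cells 46.0, 49.96, 49.5 and 47.9 CPM in aged CNV, aged control, young CNV and young control. Besides Müller glia-like cells, 2 values were called. Melanocyte-like cells held 62.4 CPM in young CNV (81 UMIs) and 26.2 in young control (22 UMIs), a ratio of 2.38 (1.47 to 4.01), which was 1.23 with thinned cells, 1.31 as a mean over cells and 1.49 without cell cycle cells. Cone-like cells held 18.5 CPM in aged CNV and 39.2 in young CNV, a ratio of 0.472 (0.318 to 0.703), which was 0.548 with predicted doublets kept. Mdm2 had no call in any of the 4 comparisons, with log2 ratios from -0.50 to 0.79. Macrophage/monocyte-like cells held 105 CPM of Mdm2 in aged CNV, 125 in aged control, 70.2 in young CNV and 77.7 in young control, and neutrophil-like cells 315 CPM in aged CNV (203 UMIs), the highest class value. Rod-like cells, where Cdkn1a was near the bottom, held 74.8, 70.2, 62.5 and 65.1 CPM of Mdm2.

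Over the 52 pairs of class and library, the genes whose levels ran most alike to each member were named by Pearson r of log2(CPM + 5), as a description, since libraries and depth are shared between points. For Cdkn1a they were Sertad1 (0.93) and Csrnp1 (0.92), for Gdf15 Slc11a1 and Pilra (0.88 each), for Trp53 Rpl4 (0.89) and for Mdm2 Kpna4 (0.90). For Cdkn2c the closest was the primase gene Prim1 (0.78), for Cdkn2a the muscle actinin gene Actn2 (0.80) and for Cdkn2b Efna4 (0.82). Among the members themselves the highest r was between Cdkn1a and Trp53 (0.68), while Cdkn1a with Mdm2 gave 0.34 and Cdkn2a with its neighbour Cdkn2b 0.23.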

How the data were processed

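Single-cell RNA was measured with 10x Genomics droplets in 4 libraries, 1 per group. The authors deposited counts that are not normalized, in a matrix of genes by cells, whose column prefixes gave the library; e was read as aged, the only other code beside y, and 0 columns belonged to no sample. Cell Ranger and Seurat 4.1.1 on mm10 are named in the submitters' processing notes; which Cell Ranger version and gene annotation were used is not given in the sources used here. Nothing here says that a library holds more than 1 animal.

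A filter of 200 genes and 25% mitochondrial UMIs took out 0 cells, and Scrublet scores over 0.2 removed 272, 246, 290 and 303 cells in aged CNV, aged control, young CNV and young control. Clustering left out the 7 genes and used scanpy 1.11.5 (2000 variable genes, 40 components, 20 neighbours, Leiden resolution 1 with leidenalg 0.10.2, seed 1) on Python 3.11.15, and clusters where 30% or more of the cells had Ptprc went through a further round. Of 63 clusters 13 stayed unnamed (6.46%, 3.22%, 4.25% and 3.93% of cells). The score of 0.2, the naming thresholds and the mismatch allowed in the p53 search were set after values were seen. The 7 genes and all lists were chosen with earlier results of these data known.

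For each class, the UMIs of a library were added up; CPM intervals are exact Poisson and ratio intervals exact conditional binomial, at 95%, for counting error only; shares of cells carry no interval in the text. Where a library held 0 UMIs the ratio was taken against a floor of 3 counts. Named from each pathway list were up to 4 genes with at least 20 UMIs and the ratio farthest from 1 at the interval bound nearest 1. Alternatives were TMM (edgeR 4.0.16) and median-of-ratios scaling, other count minimums and folds, doublets kept, cells thinned to 1000 UMIs, cells named from their own markers, means over cells, cells with UMIs of at least 2 cell cycle genes left out and, added after seeing the data, the cell with the most UMIs of the gene left out. The counting was tested on counts simulated for fibroblast-like cells with counting error only, which leaves out any spread between cells or animals.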

Additional observations from a re-analysis of the deposited data

Results flagged for a closer look

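Laser was followed by opposite signs in aged and young animals, with both counting intervals leaving out 1, for 3 genes. Each was measured in 1 library per group, and the difference between the ages was not tested. Opposite signs where either interval held 1 are not listed here. In macrophage/monocyte-like cells the log2 ratio of Cdkn1a was 0.18 in aged CNV over aged control and -0.48 in young CNV over young control. In the same class Gdf15 gave -0.63 in the aged and 0.46 in the young pair. In RPE-like cells Mdm2 gave 0.62 in the aged and -0.50 in the young pair. All 6 values are under 2-fold. In macrophage/monocyte-like cells the largest cluster differed between the CNV libraries (L00) and the controls (L09 in aged, L04 in young), and the part of that mixture was not tested.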

How the results depend on the processing

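No paired analysis was possible because each group is 1 library. Of 39 called member values, 21 stayed at least 2-fold under every setting that gave them a value, and of 365 values over all settings 325 did. The 365 include 39 values at a minimum of 1 UMI and 25 at a minimum of 50 UMIs. A count minimum leaves the ratio as it is, so these values could not fall under 2-fold. With thinned cells 29 of the 39 had a value. In aged CNV over aged control, the 7 higher calls became 1 with thinned cells, 12 with cells named from their own markers and 17 at 1.5-fold; the 0 lower calls became 1 at a minimum of 1 UMI, 1 thinned, 1 as a mean over cells and 3 at 1.5-fold. In young CNV over young control, 6 higher calls became 2 thinned and 12 at 1.5-fold; 1 lower call became 4 at a minimum of 1 UMI, 0 thinned, 6 at 1.5-fold and 2 each with doublets kept, own markers, cell cycle cells left out and the cell of the highest count left out. In aged control over young control, 2 higher calls became 1 at a minimum of 50 UMIs, 1 thinned and 6 at 1.5-fold; 10 lower calls became 5 at 50 UMIs and 2 thinned. In aged CNV over young CNV, 2 higher calls became 5 with own markers, 4 without cell cycle cells and 8 at 1.5-fold; 11 lower calls became 7 at 50 UMIs, 4 thinned and 7 with own markers. Thinned libraries hold fewer UMIs, so fewer pairs reach the minimum. Apart from that, 11 of the 29 called values with a thinned value were under 2-fold or of the other sign when thinned. Among them was Cdkn1a in Schwann-like cells of the young laser pair, on 134 UMIs. The log2 ratio changed sign 7 times: Cdkn2a in fibroblast-like cells, young CNV over young control, -0.40 thinned; Cdkn2b in Müller glia-like cells, aged over young control, 0.15 as a mean over cells; Cdkn1a in bipolar-like cells, aged over young CNV, 0.15 with doublets kept and 1.35 with own markers; and Gdf15 in surface epithelial-like cells, aged over young CNV, 1.14 with own markers, 0.20 as a mean over cells and 0.090 without cell cycle cells. The cause was not tested. The other scalings shifted the all-gene median by between -0.37 and 0.50 (log2), and by over 0.1 in 15 (TMM) and 18 (median-of-ratios) of 44 class comparisons, and changed no sign of a called value.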

Other observations

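Some clusters that could not be named as a cell class had Cdkn1a or Cdkn2c values described here, and they were picked out after their values were seen. Cluster c42, led by the adipocyte genes Cfd, Car3 and Adipoq, had 47 cells in aged CNV and 1 in young CNV. In aged CNV it held 515 CPM of Cdkn1a (369 UMIs) and 151 CPM of Cdkn2c (108 UMIs). Cluster L10, led by antigen presentation genes with Xcr1 and the mitotic genes Top2a and Mki67, held 94.2 CPM of Cdkn2c in the 71 cells of young CNV (149 UMIs). Cluster c29, led by the smooth muscle genes Tagln, Acta2 and Myh11, held 36.5 CPM of Cdkn1a in young CNV (37 UMIs, interval 25.7 to 50.2) and 83.6 CPM in young control (85 UMIs, 66.8 to 103).

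Among genes of the senescence-associated secretory list, Timp1, an inhibitor of matrix metalloproteinases, was higher after laser in Müller glia-like and RPE-like cells at both ages. In Müller glia-like cells Timp1 held 120 CPM in aged CNV and 3.17 in aged control, and 96.4 CPM in young CNV and 3.68 in young control. In RPE-like cells Timp1 held 93.7 CPM in aged CNV and 1.09 in aged control, and 8.94 CPM in young CNV and 0.974 in young control. All 4 ratios were past 2-fold at the interval bound nearest 1. The 8 fibroblast markers were also higher after laser in both classes. In RPE-like cells they summed to 360 CPM in aged CNV, 134 in aged control, 1522 in young CNV and 360 in young control. In Müller glia-like cells they summed to 343, 76.8, 512 and 307 CPM in the same order. Their part in the Timp1 levels was not tested.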
